A study of Mus musculus with 2 samples.

Results

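The genes of arginine and polyamine metabolism were followed in neutrophils of the mouse spleen. The set holds 10 genes, taken by symbol: the arginases Arg1 and Arg2, the inducible nitric oxide synthase Nos2, the citrulline-recycling enzymes Ass1 and Asl, ornithine decarboxylase Odc1, the spermidine/spermine acetyltransferase Sat1, the antizymes Oaz1 and Oaz2, and the antizyme inhibitor Azin1. They are 10 of the 55536 Ensembl genes of the gene tables, and each symbol matched 1 gene. The rule uses symbols and no measured value, though it was written with earlier results of these data known.

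Total RNA was sequenced from primary spleen neutrophils of adult male B6CASTF1/J mice at 65 days. These mice are F1 hybrids of a cross of C57BL/6 females with CAST/EiJ males, so each autosomal gene has an allele of each strain, while the X chromosome, which carries Sat1, comes from the C57BL/6 parent. There is 1 group with replicates 1 and 2, 2 libraries in all. Each used 300 ng of RNA, to which ERCC spike-in RNA was added. The labels give both the same donor identifier, so separate animals are not shown and their spread may be technical. No treatment, mutation or second condition exists, so the results are levels, relations between genes within a library, and a comparison of the libraries themselves.

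Arginine stands at a branch point. Arginase splits it to ornithine and urea, nitric oxide synthase oxidises it to citrulline and nitric oxide, and argininosuccinate synthase and lyase rebuild it from citrulline. In myeloid cells the arginase and nitric oxide synthase routes are best known as inducible ones that compete for the same substrate. Ornithine decarboxylase turns ornithine into putrescine, the first polyamine, from which spermidine and spermine follow. The supply is held by feedback: polyamines promote a ribosomal +1 frameshift in the antizyme mRNA, antizyme binds ornithine decarboxylase and delivers it to the proteasome, antizyme inhibitor sequesters antizyme, and Sat1 acetylates spermidine and spermine for export or breakdown. Sat1 is itself controlled in part by splicing, since polyamines are known to favour the skipping of an exon that carries an early stop codon.

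The following stretches of reference sequence carry the RNA steps of this feedback and are shown because the isoform results below turn on them. They are sense-strand bases of GENCODE M21 transcripts on mm10, not reads of these mice, and the CAST/EiJ allele was not read. In the antizyme sites the capitals mark the stop codon of the first reading frame, which a ribosome passes by shifting forward 1 base. In the Sat1 exon they mark the stop codon that ends the reading frame of transcripts that include it.
Oaz1 shift site, chr10:80828274-80828318, plus strand: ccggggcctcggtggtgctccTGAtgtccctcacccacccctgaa
Oaz2 shift site, chr9:65686251-65686295, plus strand: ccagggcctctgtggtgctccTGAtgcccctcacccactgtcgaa
Sat1 exon, first bases, chrX:155215201-155215230, minus strand: gttacagtctcTAGcttcgccatgtacatg

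Values are the deposited TPM of the gene tables, called RSEM below for their layout, unless kallisto is named. TPM divides each gene's reads by its length and scales each library to the same total, so levels of different genes can be set beside each other. Of the 10 members, 8 stood at 1 TPM or more in both libraries, and Arg1 and Nos2 did not. Over the 8, mean levels ran from 10.6 TPM for Asl to 224 TPM for Sat1, against a median of 4.46 TPM for the 14633 protein-coding genes above 0 in either library. Sat1, Oaz1 and Azin1 each stood above Odc1 in both libraries, and Oaz2 below it.

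**Figure D1:**
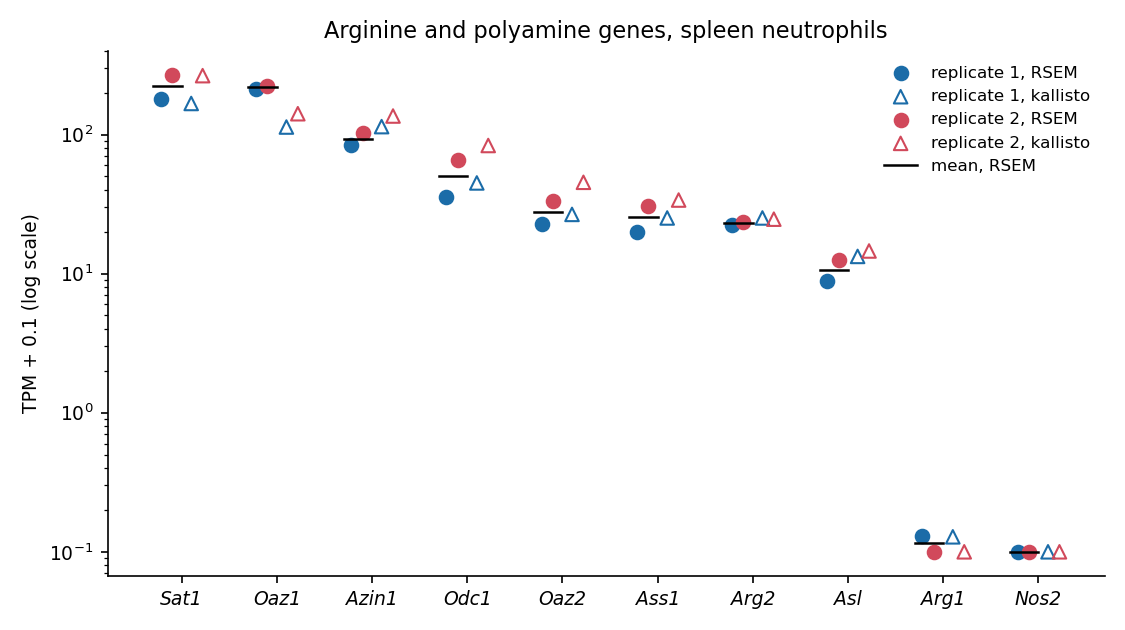
Level of each member as TPM + 0.1 on a log axis, ordered by mean; filled circles are RSEM, open triangles kallisto, blue replicate 1, red replicate 2, and bars the RSEM mean of n = 2. Sat1 and Oaz1 lead at means of 224 and 218 TPM by RSEM, kallisto puts Oaz1 lower at 127 TPM, and Arg1 and Nos2 lie at the floor.

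Arg1, the cytosolic arginase of liver and of alternatively activated macrophages (ENSMUSG00000019987.9, chromosome 10, 24915221 to 24927484, minus strand), had 1 expected count in replicate 1 and 0 in replicate 2. Its deposited level was 0.03 and 0 TPM. The count of 0 in replicate 2 allows up to 3 counts, or 0.117 TPM for the longest coding transcript of Arg1.

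Nos2, the inducible nitric oxide synthase (ENSMUSG00000020826.8, chromosome 11, 78920787 to 78960254, plus strand), had 0 counts in both libraries by both quantifiers. The limit that a count of 0 allows was 0.0336 TPM for replicate 1 and 0.0395 TPM for replicate 2. The other synthase genes were also at or near 0, with 0 counts for Nos1 in both libraries and 2 and 0 counts for Nos3.

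Arg2, the mitochondrial arginase (ENSMUSG00000021125.6, chromosome 12, 79130777 to 79156301, plus strand), stood at 22.3 TPM in replicate 1 and 23.6 TPM in replicate 2, or 22.9 ± 0.884 TPM (SD, n = 2), from 646 and 581 counts. It ranked above 79.9% of the protein-coding genes above 0. Nearly all arginase RNA was thus that of Arg2: over both libraries 1227 counts fell on Arg2 and 1 on Arg1. Per length this is a ratio of 1272, with an exact 95% binomial interval from 228 to 50292 that covers counting error only. On log2(TPM + 0.1) Arg2 exceeded Arg1 by 7.43 in replicate 1 and 7.89 in replicate 2, and this size is set by the pseudocount since Arg1 is near 0. Arg2 has 1 annotated transcript. It overlaps 285 bases of Vti1b and 997 bases of the antisense gene Gm48780, both on the opposite strand. Vti1b had 707 and 639 counts over its whole length in replicates 1 and 2, near those of Arg2, and Gm48780 had 23 and 39. Whether the counting used strand is not given in the sources used here.

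Ass1, argininosuccinate synthase (ENSMUSG00000076441.9, chromosome 2, 31470207 to 31520672, plus strand), stood at 19.9 TPM in replicate 1 and 30.8 TPM in replicate 2 (25.4 ± 7.67 TPM, n = 2). Asl, argininosuccinate lyase, which completes the step from citrulline to arginine (ENSMUSG00000025533.15, chromosome 5, 130011258 to 130029247, minus strand), stood at 8.79 and 12.4 TPM (10.6 ± 2.52 TPM, n = 2). RNA of both enzymes of citrulline recycling was thus present. Ass1 exceeded Asl by 1.17 and 1.31 on the log2 scale in replicates 1 and 2, a mean of 1.24 ± 0.097. Of the distinct 100-base windows in Ass1 transcripts, 26.9% also occur in the processed pseudogene Gm5424, so reads there can be split between both. RSEM gave Gm5424 30.9 counts in replicate 1 and 9.08 in replicate 2 beside 679 and 877 for Ass1, and kallisto gave it 0 in both.

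Odc1, ornithine decarboxylase, the committed step of polyamine synthesis (ENSMUSG00000011179.8, chromosome 12, 17544794 to 17551505, plus strand), stood at 35.3 TPM in replicate 1 and 65.0 TPM in replicate 2 (50.1 ± 20.99 TPM, n = 2). It lay above 90.4% of protein-coding genes. Replicate 2 was the higher library, and kallisto gave 44.8 and 83.3 TPM in the same order. Pseudogenes share 10.1% of the 100-base windows of Odc1 transcripts. The 8 entries that do so took 86.8 counts in replicate 1 and 104 in replicate 2 beside 1365 and 1898 for Odc1.

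Oaz1, antizyme 1 (ENSMUSG00000035242.15, chromosome 10, 80826656 to 80829290, plus strand), stood at 213 TPM in replicate 1 and 223 TPM in replicate 2 (218 ± 7.08 TPM, n = 2). Oaz2, the second antizyme (ENSMUSG00000040652.16, chromosome 9, 65668001 to 65690300, plus strand), stood at 22.5 and 33.2 TPM (27.8 ± 7.54 TPM, n = 2). Oaz1 was 9.44 times the level of Oaz2 in replicate 1 and 6.72 times in replicate 2, a log2 difference of 2.99 ± 0.35. The summed antizymes exceeded Odc1 by 2.74 on the log2 scale in replicate 1 and by 1.98 in replicate 2, with a mean of 2.36 ± 0.54. That is 6.66 and 3.94 times as many antizyme as Odc1 transcripts. The antizyme excess held in both libraries, and it was smaller in replicate 2, where Odc1 was higher. By kallisto the mean difference was 1.40, or 2.26 once the Oaz1 pseudogene described below was added to Oaz1.

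Azin1, antizyme inhibitor 1, a relative of Odc1 without decarboxylase activity (ENSMUSG00000037458.15, chromosome 15, 38487427 to 38519266, minus strand), stood at 84.0 TPM in replicate 1 and 102 TPM in replicate 2 (93.1 ± 12.96 TPM, n = 2). It exceeded Odc1 by 1.25 and 0.65 on the log2 scale, a mean of 0.95 ± 0.42, in TPM summed over all models. The sum includes short models such as Azin1-207, of 747 bases, at 23.8 and 21.5 TPM by RSEM. The long coding models Azin1-203 (15.5 and 19.7 TPM) and Azin1-201 (2.80 and 2.86 TPM) were below Odc1-201 (24.1 and 37.9 TPM). By kallisto Azin1-203 was at 8.74 and 13.3 TPM and Odc1-201 at 19.7 and 35.8 TPM. The excess of Azin1 thus depends on the short models. As a gene, Azin1 stayed below Oaz1 by RSEM, by 1.34 and 1.12 on the log2 scale. By kallisto the levels of Azin1 and Oaz1 were 114 and 113 TPM in replicate 1 and 136 and 141 TPM in replicate 2, so the order of these entries depends on the quantifier. With the Oaz1 pseudogene described below added, kallisto put Oaz1 at 238 and 281 TPM, above Azin1 in both libraries as by RSEM.

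Sat1, spermidine/spermine acetyltransferase, which starts polyamine breakdown (ENSMUSG00000025283.15, chromosome X, 155213132 to 155216449, minus strand), stood at 178 TPM in replicate 1 and 270 TPM in replicate 2 (224 ± 64.4 TPM, n = 2). It lay above 98.4% of protein-coding genes, at rank 238 of 14633. Sat1 exceeded Odc1 by 2.34 and 2.05 on the log2 scale in replicates 1 and 2, a mean of 2.19 ± 0.20, or 5.05 and 4.14 times its level. The gene for the acetylation step was therefore well above the gene for the first synthetic step in both libraries.

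Set in order of mean TPM, the members ran Sat1, Oaz1, Azin1, Odc1, Oaz2, Ass1, Arg2, Asl, Arg1 and Nos2. Of the 9 pairs of neighbours, 3 did not keep their order in both libraries: Sat1 and Oaz1, Ass1 and Arg2, and Arg1 and Nos2, the last of which had at most 1 count in a library. The other 6 pairs kept their order, with a mean log2 difference above its SD. The smallest of these was Oaz2 over Ass1, at 0.17 and 0.11 in replicates 1 and 2. By RSEM, protein-coding transcripts held 66.8% and 60.1% of Oaz2 TPM, and 96.7% and 94.7% of Ass1 TPM. Over those transcripts alone Oaz2 was below Ass1 in both libraries.

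Oaz1 has a near copy in the genome, and the quantifiers divided reads between the pair in different ways. Oaz1-ps (ENSMUSG00000043801.7, chromosome 17, 17345456 to 17346140) is annotated as a processed pseudogene. It matched transcript Oaz1-207 at 683 of 684 aligned bases, with 1 mismatch and 1 gap. RSEM gave the copy 16.4 TPM in replicate 1 and 16.2 TPM in replicate 2, or 7.14% and 6.78% of the sum of both. Kallisto gave it 125 and 140 TPM, or 52.5% and 49.7% of the sum, and put Oaz1 itself at 113 and 141 TPM. The summed counts were close between quantifiers, at 3629 by RSEM and 3619 by kallisto in replicate 1 and 3248 and 3163 in replicate 2. The quantifiers thus differed mainly in how they divided a like number of reads between the gene and the copy.

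**Figure D2:**
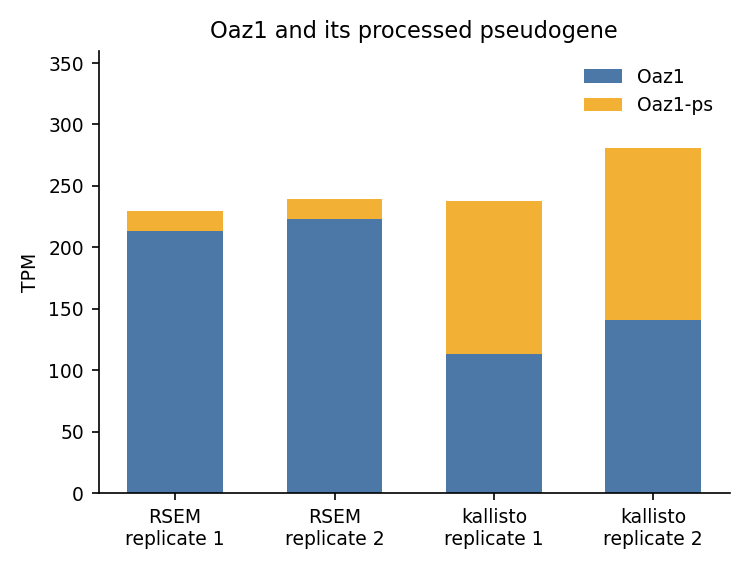
Level in TPM (linear axis from 0) of Oaz1 (blue) with its processed pseudogene Oaz1-ps stacked on top (orange), 1 bar for each library and quantifier. The pseudogene takes 7.14% and 6.78% of the bar by RSEM and 52.5% and 49.7% by kallisto.

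The annotation of the antizyme shift site differs between transcript models, and the quantifiers chose different ones. The reference models write the frameshift as a gap in the exon: Oaz1-201 leaves out 4 bases at the site, Oaz1-202, Oaz1-203 and Oaz1-207 leave out 1 base, Oaz1-205 and Oaz1-206 leave out none, and Oaz1-204 does not reach it. The site as it stands in these models reads as follows, with nothing left out in the pseudogene.
Oaz1-201: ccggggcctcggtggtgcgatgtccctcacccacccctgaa
Oaz1-207: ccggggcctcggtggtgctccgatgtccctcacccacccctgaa
Oaz1-ps: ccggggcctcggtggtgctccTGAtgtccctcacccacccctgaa
In Oaz1-207 the base left out is the first of the stop codon, which joins the reading frames on either side. Over 45 bases the pseudogene is identical to the unbroken Oaz1 site. By RSEM the Oaz1 models with the unbroken site took 50.0% of Oaz1 TPM in replicate 1 and 48.3% in replicate 2. By kallisto they took 6.71% and 5.57%. The leading Oaz1 transcript was Oaz1-205 by RSEM, at 46.0% and 44.8%, and kallisto gave that transcript 0 in both libraries. Kallisto led with Oaz1-204, at 57.9% and 60.3%, which RSEM put at 8.04% and 7.19%. Both quantifiers gave Oaz1-201 a share, with 32.2% and 33.6% by kallisto and 26.0% and 37.4% by RSEM. These are shares of TPM, and Oaz1-204 and Oaz1-205 are short models of 520 and 538 bases. Of Oaz1 counts, Oaz1-201 took the most, with 43.7% and 48.6% by kallisto and 34.3% and 49.1% by RSEM. Whether the models with bases left out account for the reads given to the pseudogene was not tested.

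For Oaz2 the quantifiers differed in the other direction, with 45.1% and 54.6% of its TPM on models with the unbroken site by kallisto and 33.2% and 39.9% by RSEM. Oaz2-201 leaves out 4 bases at the site and took 47.2% and 34.5% of Oaz2 TPM by kallisto and 63.9% and 37.0% by RSEM. Oaz2-207, annotated as a processed transcript with the unbroken site, took 33.9% and 48.1% by kallisto and 17.96% and 29.9% by RSEM. This model is only 393 bases long, which raises its TPM share above its share of reads. Of Oaz2 counts it took 5.54% and 9.43% by kallisto and 3.94% and 7.54% by RSEM. Oaz2-201 took 74.5% and 70.5% of the counts by kallisto and 83.1% and 55.3% by RSEM. Both quantifiers gave Oaz2-207 a larger share in replicate 2 than in replicate 1. The Oaz2 pseudogene Oaz2-ps took 1.56 counts and 0 counts by RSEM and 0 by kallisto, so few reads were given to this copy by either.

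Sat1 RNA was only in part coding. Sat1-201, the protein-coding form, took 39.0% of Sat1 TPM in replicate 1 and 40.7% in replicate 2 by kallisto, and 45.0% and 42.3% by RSEM. Sat1-207 has the same exons plus the exon shown above, 110 bases long with its stop codon at base 12, and is annotated for nonsense-mediated decay, the pathway that destroys mRNA with an early stop. It took 18.8% and 24.0% by kallisto and 14.5% and 20.5% by RSEM. Of the sum of Sat1-201 and Sat1-207, the form with the extra exon made up 32.5% and 37.1% by kallisto and 24.3% and 32.6% by RSEM. The share was larger in replicate 2 by both quantifiers, which is also the library with more Sat1 and Odc1. Retained-intron forms held 41.2% and 34.9% of Sat1 TPM by kallisto and 40.1% and 37.0% by RSEM, led by Sat1-205 (18.3% and 15.9% by kallisto) and Sat1-206 (11.3% and 11.2%).

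Among the 1731 protein-coding genes at 10 TPM or more that have a nonsense-mediated decay transcript, the median share of such transcripts was 9.57% by kallisto and 6.34% by RSEM. Sat1, at a mean of 21.4% and 17.5%, lay at percentile 77.4 and 76.1 of them. Its retained-intron share lay at percentile 76.4 and 75.5 of 3569 genes with such a transcript, whose median was 22.5% by kallisto and 22.8% by RSEM. Sat1 was thus above the median in both respects and not at the extreme of either. These shares are estimates from short reads over overlapping models, and total RNA also holds unspliced precursors.

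**Figure D3:**
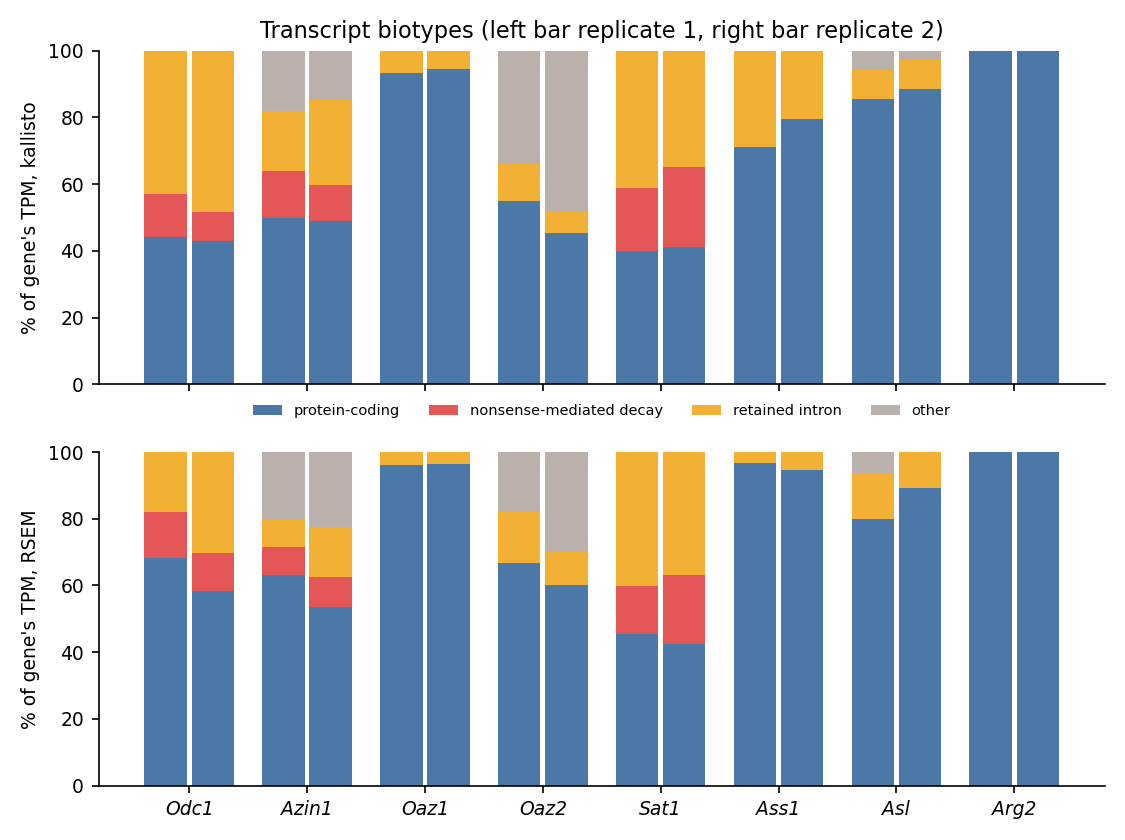
Percent of each member's TPM by annotated transcript class, by kallisto (top) and RSEM (bottom); the left bar of a pair is replicate 1 and the right bar replicate 2, and colours are protein-coding (blue), nonsense-mediated decay (red), retained intron (yellow) and other (grey). Sat1 has a protein-coding share of 40.0% to 45.5% in all 4 bars, while that of Odc1 runs from 43.0% by kallisto to 68.3% by RSEM.

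The coding share of Odc1 TPM depended on the quantifier. Odc1-201, its protein-coding form, took 44.1% and 43.0% of Odc1 TPM by kallisto and 68.3% and 58.3% by RSEM. The retained-intron transcript Odc1-204 took 34.6% and 38.6% by kallisto against 2.92% and 8.76% by RSEM. This model is 561 bases long and took 9.33% and 10.5% of Odc1 counts by kallisto. Of the counts, Odc1-201 took 70.5% and 74.1% by kallisto and 81.1% and 78.2% by RSEM, so the quantifiers were closer by counts. Azin1 was spread over many models: Azin1-207, a coding model of 747 bases, had the highest mean share of TPM by both quantifiers, with 22.0% and 21.7% by kallisto and 28.3% and 21.02% by RSEM. Azin1-204, also coding, took 18.1% and 16.1% by kallisto and 13.1% and 10.5% by RSEM, and the processed transcript Azin1-208 took 17.9% and 14.9% by kallisto and 20.5% and 22.3% by RSEM, the last above Azin1-207. By counts longer models led. Azin1-203, a coding model of 4217 bases, took 27.0% and 32.1% of counts by kallisto and 45.0% and 45.6% by RSEM. The nonsense-mediated decay model Azin1-205 took 30.4% and 31.6% of counts by kallisto and 18.6% and 20.7% by RSEM. The nonsense-mediated decay share of TPM was 12.4% ± 2.33 for Azin1 and 10.8% ± 3.16 for Odc1 by kallisto (n = 2). By RSEM the means were 8.60% and 12.6%. By both quantifiers these TPM shares lay nearer the median of genes with such a transcript than that of Sat1. For counts no such median was taken, and Azin1 was not below Sat1. The mean decay share of counts was 31.9% for Azin1 and 23.4% for Sat1 by kallisto. By RSEM it was 19.7% and 19.2%, with Sat1 the higher in replicate 2. Odc1 stayed below Sat1, at 15.4% by kallisto and 13.9% by RSEM. Ass1-201 held 71.1% and 79.5% of Ass1 by kallisto and 96.7% and 94.7% by RSEM. For Asl, Asl-201 had the highest mean share of TPM by both quantifiers, with 37.5% and 40.1% by kallisto and 27.8% and 37.9% by RSEM. By RSEM Asl-205 led in replicate 1, with 42.2% and 21.1%, against 5.61% and 8.09% by kallisto. It also led by RSEM counts in both libraries, with 51.5% and 31.4%. Asl-206 took 24.9% and 27.2% by kallisto but 0% and 24.4% by RSEM.

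The libraries were then compared gene by gene, to show which members differed between them beyond counting error. An exact two-sided binomial test on expected counts was used, with library sizes scaled by TMM, a trimmed mean that takes most genes as unchanged, and with Benjamini-Hochberg adjustment over the 15118 genes that had 10 counts or more when the libraries were summed. It compares these libraries and no condition. Of all genes tested, 32.1% were called at an adjusted p below 0.05, 17.0% higher in replicate 2 and 15.0% higher in replicate 1. Of the 8 members tested, 4 were called: Odc1, Sat1 and Ass1 were higher in replicate 2, and Oaz1 was higher in replicate 1. Arg1 and Nos2 had too few counts to be tested. A share of 4 in 8 is read against 32.1% of all genes, and the median log2 ratio of replicate 2 over replicate 1 was 0.09 over the 8 members and 0.00 over all genes tested, whose quartiles were -0.24 and 0.25.

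For Odc1, 1365 counts against 1898 (replicates 1 and 2) gave a log2 ratio of 0.46 (exact 95% interval 0.36 to 0.56, adjusted p = 4.71e-18). Sat1 had 4119 and 5371 counts, a log2 ratio of 0.37 (0.31 to 0.43, adjusted p = 3.77e-33 by the exact test). Ass1 had 679 and 877 counts, a log2 ratio of 0.35 (0.21 to 0.50, adjusted p = 1.34e-05 by the exact test). These are 1.37, 1.29 and 1.28 times the scaled count of replicate 1. Ratios as large in either direction were found in 28.3%, 35.5% and 36.8% of all genes tested, so none of the 3 stood far out in these libraries.

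For Oaz1, 3420 counts against 3072 gave a log2 ratio of -0.17 (-0.24 to -0.10, adjusted p = 1.44e-05 by the exact test). By kallisto counts the call was lost, at -0.05 with an adjusted p of 0.489 by the exact test. Arg2 had a log2 ratio of -0.17, with an interval of -0.33 to -0.01 and an adjusted p of 0.104 by the exact test. The same test gave Azin1 0.08 with an adjusted p of 0.0973, Oaz2 0.11 with 0.289, and Asl -0.04 with 0.849. A p above the threshold does not show that these genes had equal levels.

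These calls depend on the scaling and the quantifier. Beside 4 of 8 members with TMM, 5 of 8 were called with total counts (32.4% of all genes), 5 of 8 with kallisto counts (31.1%) and 4 of 8 among protein-coding genes alone (33.1%). Among the calls, the share higher in replicate 2 was 53.1% with TMM and 62.2% with total counts, and 98.4% when the libraries were scaled to the ERCC spike-in RNA. With the spike-in scaling the median log2 ratio of all genes moved to 0.74, 75.1% of all genes tested were called in either direction, and all 8 members were called higher in replicate 2. A change of scaling shifts every gene alike, so the order of the members stayed the same, with Odc1 highest and Oaz1 and Arg2 lowest. Spike-in RNA made up 0.423% of the counts of replicate 1 and 0.260% of those of replicate 2.

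**Figure D4:**
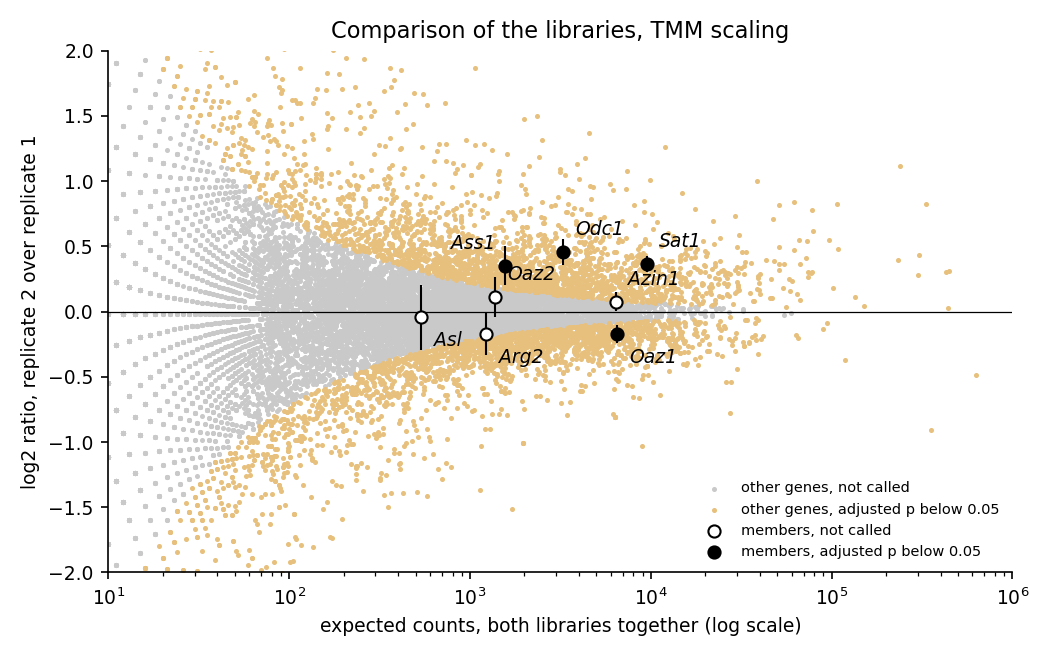
Log2 ratio of scaled counts, replicate 2 over replicate 1 (y axis), against expected counts of both libraries together (log x axis), for the genes tested that fall within the axes; black discs are members with an adjusted p below 0.05, white discs members without, and bars exact 95% intervals. Odc1, Sat1 and Ass1 lie at 0.46, 0.37 and 0.35 and Oaz1 at -0.17, all within the cloud of other genes.

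TPM and scaled counts ranked the libraries differently for some members, and the shares of the RNA classes differed between the libraries. Protein-coding genes made up 32.8% of all TPM in replicate 1 and 45.4% in replicate 2, beside 43.8% and 31.6% for the 7SL RNA genes. Within the protein-coding TPM alone, Arg2 was at 67.9 and 51.9, Oaz1 at 650 and 492, Azin1 at 256 and 225, Asl at 26.8 and 27.2, Sat1 at 544 and 594 and Odc1 at 107 and 143. On this scale Odc1 and Sat1 were still higher in replicate 2, and Oaz1, Arg2 and Azin1 were higher in replicate 1. Depth was 18387963 expected counts in replicate 1 and 18090108 in replicate 2, and 1 count on a gene of 1 kb was worth 0.0458 and 0.0538 TPM.

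Marker genes gave the cell makeup against which these values stand. All 9 neutrophil markers, among them Ly6g, S100a8 and Cxcr2, were at 10 TPM or more, with a sum of 30834 TPM for replicate 1 and 64265 TPM for replicate 2. All 9 were called higher in replicate 2, against 17.0% of all genes tested. Of 13 macrophage and monocyte markers, which matter here since macrophages are a known source of Arg1 and Nos2, the summed level was 398 and 571 TPM. The 6 below 1 TPM were C1qa, C1qb, C1qc, Mertk, Marco and Spic, whereas Csf1r, Ccr2, Ly6c2 and Cd68 were at 10 TPM or more. Of the 7 tested, 5 were called higher in replicate 2. The summed level of 5 B cell markers was 4.49 and 17.4 TPM with 4 of 5 called higher in replicate 2, and that of 5 erythroid markers 46.5 and 120 TPM with 4 of 5. For 5 eosinophil markers the sum was 11.7 and 18.9 TPM, with 2 of 3 tested called higher in replicate 2. The 6 T and NK cell markers summed to 0.61 and 0.53 TPM, with Ncr1 at 0. For 5 proliferation markers, among them Mki67 and Top2a, the sum was 220 and 281 TPM, with 3 of 5 called higher in replicate 2. The calls of each list are read against 17.0% of all genes tested, called higher in replicate 2. Some were called at small log2 ratios: 0.03 for Csf3r, 0.08 for Csf1r and 0.10 for Top2a. Ratios as large were found in 91.1%, 81.0% and 76.4% of all genes tested. On scaled counts, the scale on which Odc1, Sat1 and Ass1 were called higher in replicate 2, the median log2 ratio was 0.52 for the neutrophil list, 0.27 for macrophages and monocytes, 1.77 over the B cell genes, 1.28 over the erythroid genes, 0.55 over the eosinophil genes and 0.16 over the proliferation genes. The part of these lists in the members' results was not tested. The TPM sums also carry the larger protein-coding share of replicate 2. In bulk RNA, fewer cells of a type and less RNA per cell cannot be told apart.

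The pathways around the members were described from lists of genes. Of 6 arginine transport genes, 2 stood at 10 TPM or more, 2 between 1 and 10 TPM and 2 below 1 TPM. Slc3a2, the heavy chain shared by several amino acid carriers, led at 58.4 and 69.6 TPM in replicates 1 and 2. Slc7a1, the main cationic amino acid importer of many cells, followed at 12.2 and 12.3 TPM, and Slc7a7, a light chain that pairs with Slc3a2, at 4.36 and 6.86 TPM. Slc7a2, the importer tied to activated macrophages, and Slc7a3 were below 1 TPM.

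Most genes of ornithine handling outside the polyamine route were low. Of 12 genes of the urea cycle and of ornithine and creatine metabolism, 1 was at 10 TPM or more, 4 between 1 and 10 TPM and 7 below 1 TPM, with Cps1, Nags, Otc and Agmat at 0 counts in both libraries. Oat, which sends ornithine toward proline and glutamate, stood at 17.4 and 21.8 TPM. Gatm, the first enzyme of creatine synthesis from arginine, stood at 8.04 and 11.4 TPM. Gatm was called higher in replicate 2, on 375 and 467 counts. None of the 8 genes tested was called higher in replicate 1, against 15.0% of all genes. Of the urea cycle enzymes, RNA of Ass1 and Asl was thus detected, while Cps1 and Otc had 0 counts, which allows up to 3 counts in each library. Arg1, the arginase of that cycle in liver, had 1 and 0 counts. The arginase RNA detected was nearly all that of the mitochondrial Arg2.

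Of 9 genes of nitric oxide and biopterin metabolism, 1 was at 10 TPM or more, 3 between 1 and 10 TPM and 5 below 1 TPM. Biopterin is the cofactor of the synthases, and its genes Pts (10.9 and 13.7 TPM), Gch1 (9.14 and 9.17 TPM) and Qdpr (4.72 and 3.84 TPM) led the list, while no synthase gene had more than 2 counts in a library. Of 5 tested, Gch1 and Qdpr were called higher in replicate 1, against 15.0% of all genes. Ddah2 was called higher in replicate 2 on 10 and 26 counts. Only Ddah2 of these 3 passed 1.5-fold, at a log2 ratio of 1.32, against -0.55 for Qdpr and -0.27 for Gch1.

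The polyamine enzymes outside the members were lower than Sat1 and Odc1. Of 9 genes, 1 was at 10 TPM or more, 5 between 1 and 10 TPM and 3 below 1 TPM. Smox, spermine oxidase, stood at 18.4 and 13.4 TPM. Amd1, the decarboxylase that supplies the aminopropyl groups, stood at 9.08 and 8.62 TPM, and Sms, spermine synthase, at 4.74 and 4.44 TPM. Sat2 and Oaz3 had 0 counts in both libraries. Of 6 tested, 4 were called higher in replicate 1, against 15.0% of all genes, and none higher in replicate 2: Smox (537 and 361 counts, log2 ratio -0.59), Paox, the acetylpolyamine oxidase (93 and 62 counts, -0.60), Sms (-0.35) and Amd1 (-0.32). Smox and Paox passed 1.5-fold. Amd2, a close relative of Amd1, had a ratio in the other direction, 0.43 on 111 and 151 counts (interval 0.06 to 0.79, adjusted p = 0.0571 by the exact test), and was not called. The median over the 6 was -0.33, and Odc1 and Sat1 were at 0.46 and 0.37. A difference between these genes and the members was not tested.

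Of 5 polyamine transport genes, 3 were at 10 TPM or more. The other 2, Slc18b1 and Slc22a16, were below 1 TPM. Beside Slc3a2 the higher ones were the polyamine-transporting ATPases Atp13a3 (36.8 and 31.3 TPM) and Atp13a2 (16.5 and 18.3 TPM), and Atp13a3 was called higher in replicate 1 at -0.23. The 7 genes listed for methionine salvage, which recycles the by-product of spermidine and spermine synthesis, were all at 1 TPM or more. Mat2a (32.2 and 34.8 TPM) and Mat2b (21.3 and 24.97 TPM) led, and these belong to the synthesis of S-adenosylmethionine. The other 5 had means between 1 and 10 TPM, led by Apip (6.14 and 7.88 TPM). By the exact binomial test 0 of 7 were called, against 32.1% of all genes. Of 4 genes of hypusine synthesis, the use of spermidine to modify a translation factor, the factor Eif5a itself led at 142 and 189 TPM, before Dhps (16.7 and 16.7 TPM) and Dohh (8.23 and 9.74 TPM). Eif5a was called higher in replicate 2, at 0.16, and Eif5a2 was at 0.27 TPM in both.

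**Figure D5:**
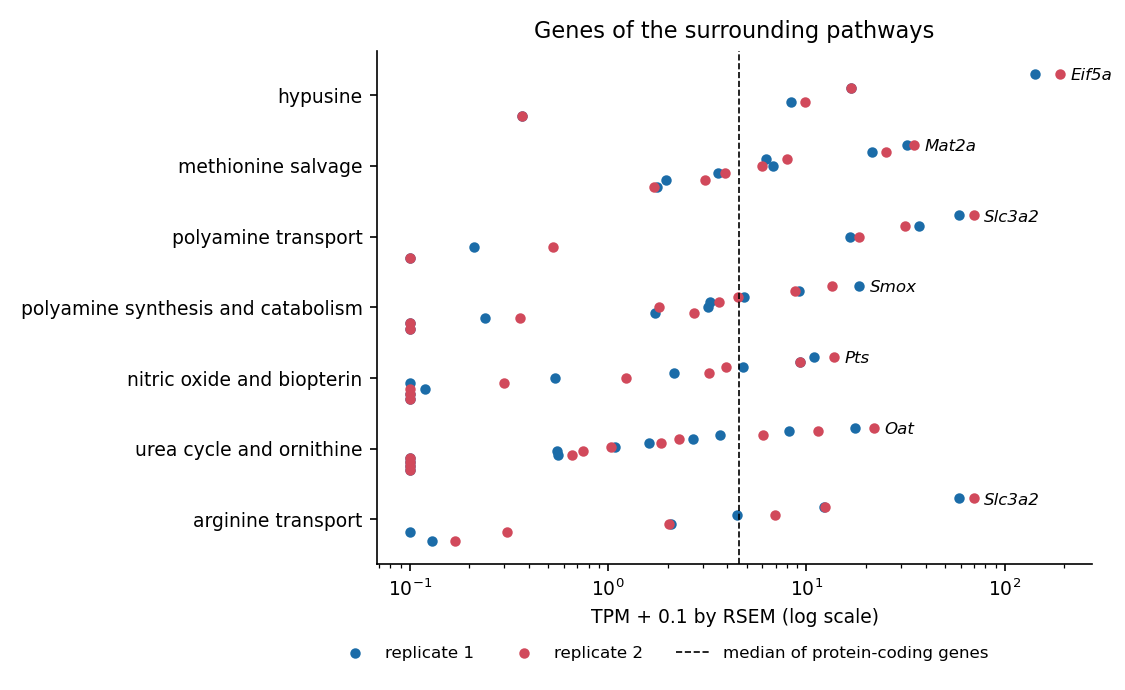
TPM + 0.1 on a log axis of every gene of the 7 surrounding lists, blue for replicate 1 and red for replicate 2, with the leading gene of each list named; the dashed line is the median of protein-coding genes at 4.46 TPM. Eif5a stands highest at 142 and 189 TPM, and 4 genes of the urea cycle list lie at 0 in both libraries.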

How the data were processed

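Total RNA-seq of 2 libraries of 1 group was analysed. The gene tables hold expected counts and TPM of the authors, made from reads aligned to the transcriptome (mm10, GENCODE M21), per the files' accompanying notes. They have the layout of RSEM, with an effective length of the length minus 100 nt. The deposited transcript tables in kallisto layout hold estimated counts and TPM made from the reads directly. For the programs, their versions and the aligner: not given in the sources used here.

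The members and gene lists were chosen with earlier results of these data known. Levels are means and SD of n = 2. Relations within a library used log2(TPM + 0.1). The libraries were compared by an exact binomial test (scipy 1.17.1) on expected counts rounded to whole numbers, with TMM from edgeR 4.0.16 over all Ensembl genes and 0.5 added to each count for log2 ratios. The calculation was tested on simulated data. Intervals and limits cover counting error only, since reads carry no molecular identifiers. Named were all members, the 3 highest genes of each pathway list, genes called at 1.5-fold or more, transcripts leading by either quantifier and those at 10% or more by both. Pseudogene and overlapping entries, the genes named as below 1 TPM or at 0 counts, and Odc1-204 were named after their values were seen. A gene that this rule would name is not reported here. Sequences came from GENCODE M21 transcripts.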

Additional observations from a re-analysis of the deposited data

How the results depend on the processing

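The antizyme excess over Odc1, a log2 difference of 2.36, was 1.40 by kallisto and 2.91 over protein-coding transcripts alone. With Oaz1-ps added to Oaz1, an alternative chosen after seeing the data, it was 2.45 by RSEM and 2.26 by kallisto. Oaz1 over Oaz2, at 2.99, became 1.86 by kallisto and 3.59 over coding transcripts, Sat1 over Odc1, at 2.19, became 1.78 and 1.67, and Ass1 over Asl, at 1.24, became 1.07 and 1.42. Arg2 over Arg1, at 7.66, became 4.56 with a pseudocount of 1 TPM and 10.16 with 0.01 TPM, by construction since Arg1 is near 0. The cause of the other shifts was not tested. Azin1 over Odc1 moved by less than its SD in each alternative, none of which left out the short coding models of Azin1. All 6 differences kept their direction in each alternative run. With 1 library left out at a time they ran from 1.98 to 2.74 (antizymes over Odc1), 0.65 to 1.25 (Azin1), 7.43 to 7.89 (Arg2), 1.17 to 1.31 (Ass1), 2.05 to 2.34 (Sat1) and 2.75 to 3.24 (Oaz1 over Oaz2).

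The 4 members called became 8 with spike-in scaling, under which 75.1% of all genes were called against 32.1%, and which turned the log2 ratios of Arg2 to 0.57, Asl to 0.70 and Oaz1 to 0.57. With total counts 5 were called (32.4% of all genes), Azin1 being added at 0.11 (adjusted p = 0.00754, exact test). With kallisto counts 5 were called (31.1% of all genes), without Oaz1 but with Arg2 at -0.29 (adjusted p = 5.65e-04) and Azin1 at 0.11 (adjusted p = 0.00335, exact test). DESeq2 1.42.0 size factors, a minimum of 1 count and protein-coding genes alone each gave 4 calls, with 32.1%, 21.3% and 33.1% of all genes called. The 8 members detected stayed 8 at 0.5 and at 5 TPM, by kallisto, over protein-coding TPM and in each library alone. No paired analysis was possible because there is 1 group. With 2 libraries that share a donor identifier, the spread between animals is not measured.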
